A study of Mus musculus with 4 samples.

Results

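Stefins and cystatins are protein inhibitors of the papain-like cysteine proteases, many of which are named cathepsins, and 10 genes of this system were followed in sorted mouse haematopoietic stem cells (HSC) after loss of the retinoblastoma (Rb) family. The 10 genes were the stefins Stfa1, Stfa2, Stfa2l1, Stfa3 and Cstb, the cystatins Cst3 and Cst7, and the cathepsins Ctsb, Ctsf and Ctsl. They were taken by symbol from the platform annotation of the array, and 9 of the 10 had a probe set, among 18194 genes in all. Stfa2 had no listed probe set and has no value here. The genes were chosen from earlier results of this same comparison, the differences between deficient and wild type arrays, so their differences between the groups are given as a description. The 9 measured genes were covered by 16 probe sets, of which 1 lists several genes: the only probe set of Stfa1 also lists Cstdc5 of the same gene cluster. Where a gene had several probe sets, the one with the highest average of the 4 arrays represents it.

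The data were 4 Affymetrix expression arrays, 2 from Rb family deficient pools (genotype Rb -/- p130 -/- p107-/-) and 2 from wild type pools (genotype Rb +/+ p130 +/+ p107-/-). Each array held the RNA of 1 pool, and each pool came from 3 mice. By these labels p107 is deleted in both groups, so the groups differ in Rb and p130. Tamoxifen was injected into adult mice of both groups, and the cells were sorted as KLS CD48- CD150+ HSC 2 weeks after recombination. The sources used here name neither the driver of recombination nor the strain or exact age of the mice, and nothing states whether pools shared mice. The p-values therefore measure the spread between these pools only. Of 15 listed HSC markers 13 were measured, including the sort marker Slamf1 (CD150) at 9.26 and 9.90 in the deficient arrays against 8.81 and 9.86 in the wild type arrays. Kit, also part of the KLS gate, was named after its values were seen. It was at 9.94 and 10.45 in the deficient arrays against 11.09 and 10.47 in the wild type arrays (-0.59, SE 0.28). HSC marker values ran from 6.69 to 12.5 on arrays whose medians lay between 5.93 and 6.01, all on the log2 scale. With 2 pools against 2, an exact permutation test of a single gene cannot give a two-sided p below 0.333.

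Stefins (type 1 cystatins) are small inhibitors that stay mostly inside the cell, whereas cystatin C, the product of Cst3, is secreted, and cystatin F, the product of Cst7, is made in immune cells and acts in their lysosomes. The cathepsins B, F and L are lysosomal proteases that degrade proteins delivered by endocytosis and autophagy. Humans have a single stefin A gene, while the mouse carries a cluster of close copies, whose transcripts are known from bone marrow myeloid cells. In the RefSeq annotation of GRCm38.p6 the cluster on chromosome 16 ran over 12 protein-coding genes from Csta1 to Stfa3, of which 7 were listed by 5 probe sets of this array.

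RefSeq promoter windows (build GRCm38.p6, 250 bases before to 50 after the annotated start) were available for 8 of the 10 genes, all but Cstb and Ctsb. The windows of the 3 measured stefin A genes are shown because these genes had the largest differences of the 9 and so that the windows can be compared letter by letter. Capitals mark matches to TTNNGNAA, a loose form of the C/EBP motif, and to GAGGAA, a core of the PU.1 motif, searched on both strands. The window of Stfa1 lies at chr16:36276898-36277197 on the plus strand, Stfa2l1 at chr16:36156561-36156860 on the plus strand and Stfa3 at chr16:36455343-36455642 on the minus strand.
Stfa1: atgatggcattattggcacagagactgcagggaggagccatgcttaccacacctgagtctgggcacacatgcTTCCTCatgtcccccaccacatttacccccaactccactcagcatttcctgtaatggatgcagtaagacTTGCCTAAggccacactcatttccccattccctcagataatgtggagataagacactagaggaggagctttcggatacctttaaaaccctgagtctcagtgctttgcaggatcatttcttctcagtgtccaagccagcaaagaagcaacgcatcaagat
Stfa2l1: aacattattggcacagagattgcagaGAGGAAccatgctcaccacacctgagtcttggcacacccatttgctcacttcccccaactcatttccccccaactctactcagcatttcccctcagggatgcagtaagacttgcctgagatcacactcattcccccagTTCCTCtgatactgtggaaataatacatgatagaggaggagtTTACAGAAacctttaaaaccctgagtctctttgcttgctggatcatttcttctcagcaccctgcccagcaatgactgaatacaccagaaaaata
Stfa3: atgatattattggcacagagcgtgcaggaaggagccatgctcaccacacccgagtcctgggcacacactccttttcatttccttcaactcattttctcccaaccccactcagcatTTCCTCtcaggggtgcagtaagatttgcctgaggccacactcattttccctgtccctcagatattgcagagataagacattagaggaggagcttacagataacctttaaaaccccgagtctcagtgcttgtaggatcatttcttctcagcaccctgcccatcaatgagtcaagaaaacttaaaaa
In global alignments the window of Stfa1 was 78.8% identical to that of Stfa2l1 and 80.6% to that of Stfa3, and Stfa2l1 and Stfa3 were 81.1% identical. The unmeasured Stfa2 shared 90.5% of its window with Stfa2l1, and Cstdc5, which shares the probe set of Stfa1, had 83.8% identity with Stfa1. The secreted cystatin gene Cst3 had 42.0% identity with Stfa1 in the same kind of alignment, and Ctsf, Cst7 and Ctsl had 46.3% to 48.5%. Not every window of the cluster was close to that of Stfa1. Cstdc4 had 74.3% identity with it, Csta3 65.3% and Csta2 45.4%, and Csta1 lay slightly below Csta2. The windows of Csta1 and Csta2 were thus less like that of Stfa1 than those of Ctsf, Cst7 and Ctsl were.

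Both deficient pools stood far above both wild type pools for every measured stefin A gene of the 10. For the Stfa1 probe set, shared with Cstdc5, the log2 levels were 8.83 and 8.37 in the deficient arrays against 4.54 and 5.36 in the wild type arrays. The 2 groups were separated by at least 3.01 in every pairing of a deficient with a wild type pool. The difference of the means was 3.65 (SE 0.32, n = 2 pools per group), or 12.6-fold on the measured values. Stfa2l1, named for its likeness to Stfa2, had log2 levels of 8.05 and 7.41 in the deficient arrays against 4.31 and 4.98 in the wild type arrays. It was 8.47-fold higher on the same basis, with a log2 difference of 3.08 (SE 0.32, n = 2 pools per group). Stfa3 had log2 levels of 7.48 and 7.09 in the deficient arrays against 4.78 and 4.39 in the wild type arrays. It was likewise 6.49-fold higher, with a log2 difference of 2.70 (SE 0.22, n = 2 pools per group), and again the groups did not overlap. In the order of log2 difference from the highest, Stfa1, Stfa2l1 and Stfa3 ranked 1, 2 and 4 among the 18194 genes. With each pool left out in turn the difference ran from 3.24 to 4.06 for Stfa1, from 2.75 to 3.42 for Stfa2l1 and from 2.50 to 2.90 for Stfa3. The wild type values of the 3 genes, 4.31 to 5.36, lay below the median of every array (5.93 to 6.01). No detection calls were used here, so these wild type levels were not shown to stand above background. The 3 folds hold for the measured values only. Since the genes were chosen by this contrast, the folds are not bounds in either direction. Transcripts of the copies in the cluster, Stfa2 among them, were not compared here, and whether a probe set for 1 copy also reads another was not tested.

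**Figure D1:**
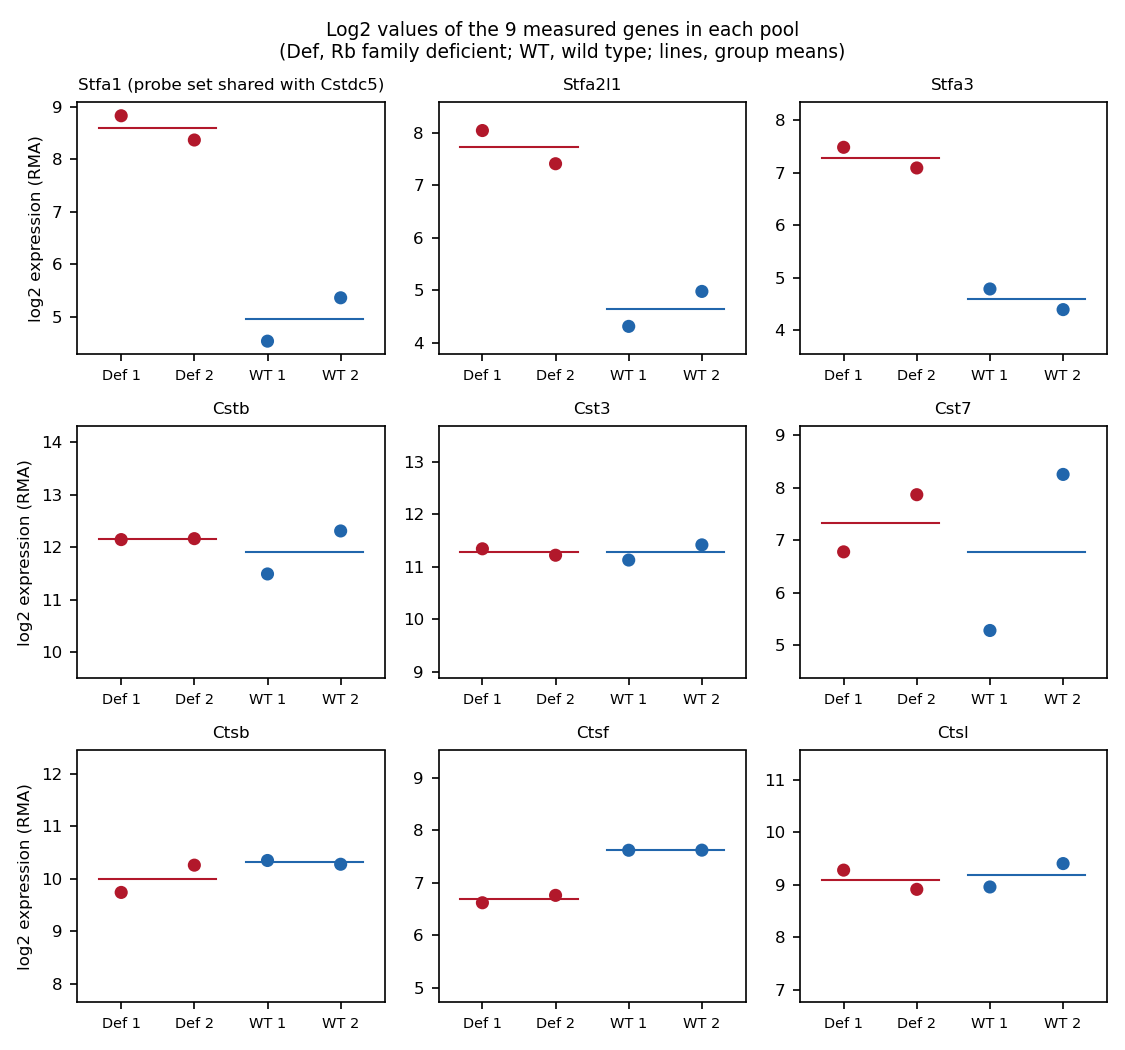
Log2 expression (RMA) of the 9 measured genes, 1 panel a gene, with 1 point for each Rb family deficient pool (Def, red) and wild type pool (WT, blue), lines at the group means and the same span of log2 units on every vertical axis. Stfa1, Stfa2l1 and Stfa3 are separated by over 2.3 log2 units, Ctsf lies lower in both deficient pools, and the wild type pools spread widely for Cst7.

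Other probe sets of the cluster did not show differences of this size. Csta1, the first gene of the cluster, stood at 3.76 and 3.77 in the deficient arrays against 3.44 and 3.45 in the wild type arrays, a log2 difference of 0.32 (SE 0.13) without overlap. The probe set shared by Cstdc4 and Csta2 stood at 4.44 and 4.26 in the deficient arrays and at 4.41 and 4.37 in the wild type arrays, a log2 difference of -0.04 (SE 0.15), with overlapping groups. Both lie near the bottom of the array, at the 8.11 and 22.2 percentiles of all probe sets by mean value.

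Cstb, encoding stefin B, the stefin found in most cell types, lies outside the cluster on chromosome 10. Its log2 levels were 12.14 and 12.16 in the deficient arrays against 11.49 and 12.31 in the wild type arrays, a difference of 0.25 (SE 0.29). The deficient pools lay between the wild type pools, and without wild type pool 1 the difference was -0.16. Its second probe set behaved alike, at 8.88 and 8.89 in the deficient arrays against 7.82 and 9.14 in the wild type arrays.

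The cystatins did not separate the groups either. Cst3 had log2 levels of 11.34 and 11.22 in the deficient arrays against 11.13 and 11.42 in the wild type arrays, a difference of 0.01 (SE 0.17). This difference turned to -0.05 without deficient pool 1 or with median centring of the arrays, and to -0.14 without wild type pool 1. Cst7 had log2 levels of 6.78 and 7.87 in the deficient arrays against 5.28 and 8.25 in the wild type arrays. The 2 wild type pools thus differed by 2.97 in log2 value, more than any deficient pool differed from either of them. The group difference of 0.56 (SE 0.98) was -0.93 when wild type pool 1 was left out and 2.04 when wild type pool 2 was. Leaving out deficient pool 1 gave 1.10, and leaving out deficient pool 2 gave 0.01.

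Of the 3 cathepsin genes Ctsb, Ctsf and Ctsl, Ctsf differed most. Cathepsin F is a lysosomal cysteine protease with a long propeptide that holds a cystatin-like domain. Its log2 levels were 6.62 and 6.76 in the deficient arrays against 7.62 and 7.62 in the wild type arrays. It was 1.91-fold lower, with a log2 difference of -0.93 (SE 0.15, n = 2 pools per group), and every deficient pool lay at least 0.859 below every wild type pool. A dimmer Ctsf probe set, whose _x_at name marks possible hybridisation to other transcripts, pointed the other way at 5.90 and 5.73 in the deficient arrays against 5.48 and 5.56 in the wild type arrays. That log2 difference was 0.29 (SE 0.15), and the mean of both probe sets gave -0.32.

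Ctsb, encoding the abundant lysosomal protease cathepsin B, had log2 levels of 9.74 and 10.26 in the deficient arrays against 10.35 and 10.28 in the wild type arrays. The groups did not overlap, but deficient pool 2 lay only 0.0171 below the lower wild type pool. The difference was -0.31 (SE 0.21), or -0.05 without deficient pool 1, -0.57 without deficient pool 2 and -0.06 as the mean over all its probe sets. Its 4 other probe sets differed by -0.44, -0.06, 0.18 and 0.32, each with overlapping groups. Ctsl, encoding cathepsin L, had log2 levels of 9.27 and 8.91 in the deficient arrays against 8.95 and 9.40 in the wild type arrays, a difference of -0.09 (SE 0.23) with overlapping groups. The sign of the Ctsl difference turned when deficient pool 2 (0.10) or wild type pool 2 (0.14) was left out, and its dimmer probe set differed by 0.20 (SE 0.19).

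**Figure D2:**
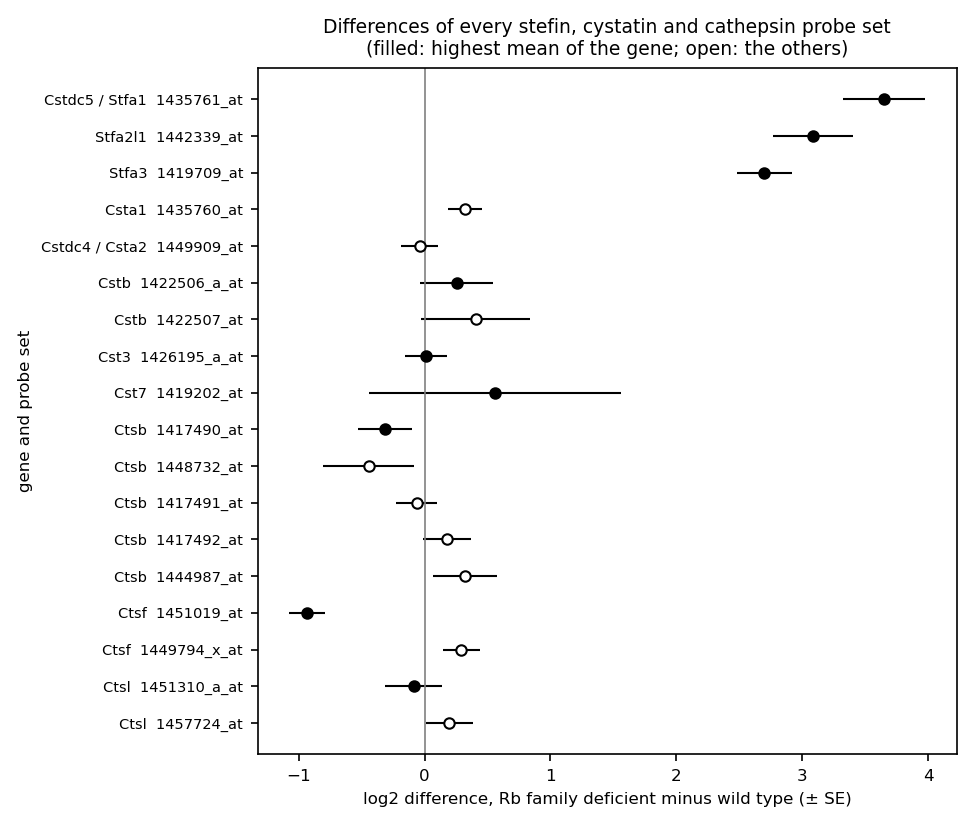
Log2 difference, Rb family deficient minus wild type, with its standard error for all 16 probe sets of the 9 measured genes and 2 further probe sets of the stefin A cluster. Filled points are the probe sets that represent a gene and open points the others, and the 3 stefin A points at 2.70 to 3.65 stand apart from the rest, which lie between -0.93 and 0.56.

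Counted over the 9 measured genes, 6 lay above 0, against 49.2% of all genes, and both deficient pools lay above both wild type pools for 3, against 17.0% of all genes. Both deficient pools lay below both wild type pools for 2 of the 9, Ctsb and Ctsf, against 18.5% of all genes. At least 2-fold higher values were seen for the 3 stefin A genes, against 0.533% of all genes, and 0 of the 9 were at least 2-fold lower, against 0.275%. By limma, 0 of the 9 passed an adjusted p of 0.05 over all genes, and 0 of 18194 genes did so (0.0%). The limma adjusted p was 0.400 for Stfa1 and Stfa3, 0.481 for Stfa2l1, 0.760 for Ctsf and 0.850 to 0.998 for the other 5. At an unadjusted p under 0.05 stood the same 3 stefin A genes among those higher (2.2% of all genes, 400 in number) and Ctsf among those lower (4.04%, 735 in number). Since this contrast led to the choice of the genes, nothing is read from their counts.

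The genes most like Stfa2l1 over the 4 arrays, by Euclidean distance after each gene was centred on its own mean, were the schlafen gene Slfn4 (distance 0.987), Socs3 (0.993), Ifitm6 (1.08), the helix-loop-helix inhibitor gene Id2 (1.16) and the neutrophil collagenase gene Mmp8 (1.23). Stfa1 and Stfa3 were nearer to Stfa2l1, at 0.592 and 0.858. For Stfa3 the nearest genes outside the family were the inducible cyclooxygenase gene Ptgs2 (0.645), the cytokine signalling inhibitor Socs3 (0.665), the chemokine gene Cxcl2 (0.772), Id2 (0.903) and Tmem215 (1.09). Stfa2l1, at 0.858, was farther from Stfa3 than Ptgs2, Socs3 and Cxcl2 were. Stfa1, at 1.28, was farther from it than all of these genes. Those nearest to Ctsf were Abcg3, Pkp2, Kif3b, Mylk and BC016579, at distances from 0.0981 to 0.162. With 4 arrays a distance says little more than that the same pools were high and low.

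Neutrophils lie outside the sort gate, and their markers were measured beside the stefins because stefin A transcripts are known from myeloid cells. Of 16 listed markers 13 were measured, without Ly6g, Retnlg and Fpr1, and 11 of the 13 lay above 0, against 49.2% of all genes, with a median log2 difference of 0.82, against -0.00376 over all genes. By limma 0 of the 13 passed the adjusted threshold, while 5 higher ones (2.2% of all genes) and 1 lower one (4.04% of all genes) had an unadjusted p under 0.05. The mean log2 value of the list was 10.8 and 10.1 in the deficient arrays against 9.37 and 9.94 in the wild type arrays. Mmp8 stood at 9.36 and 7.49 in the deficient arrays against 5.996 and 6.37 in the wild type arrays (2.24, SE 0.60). The neutrophil surface antigen gene Cd177 differed by 0.77 (SE 0.18) and the chitinase-like Chil3 by 1.09 (SE 0.36), each without overlap. For 8 of the 13 markers both deficient pools lay above both wild type pools, against 17.0% of all genes. Both lay below for 1 of the 13, against 18.5% of all genes. The granule genes Ltf, for lactoferrin, and Camp, for cathelicidin, differed by 0.73 (SE 0.41) and 0.82 (SE 0.58) with overlapping groups. Named after their values were seen, the other markers at an unadjusted p under 0.05 were the granule genes Mmp9 (1.56, SE 0.52) and Lcn2 (1.303, SE 0.45) and, below 0, the histone-modifying Padi4 (-0.74, SE 0.27). The median of the 13 became 1.29 when deficient pool 2 was left out, 0.38 when wild type pool 1 was and 1.48 when wild type pool 2 was.

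The 4 pairings of a deficient with a wild type pool set the stefins against these markers. For deficient pool 2 set against wild type pool 2, the median over the 13 neutrophil markers was 0.14, while Stfa1 differed by 3.01, Stfa2l1 by 2.43 and Stfa3 by 2.70. The markers behind that median spread from Padi4, at 6.89 against 7.94, to Mmp8, at 7.49 against 6.37. S100a8 stood at 13.61 against 13.56, Ngp at 13.19 against 13.04, S100a9 at 13.06 against 13.16 and Camp at 12.96 against 13.24. In both of these pools all of these lay above the highest HSC marker value of any array, 12.5. Whether log2 differences at such levels can be compared with those of the stefins was not tested. For deficient pool 1 set against wild type pool 1, the median of the markers was 1.84, with Stfa1 at 4.29, Stfa2l1 at 3.73 and Stfa3 at 2.70. Deficient pool 1 minus wild type pool 2 gave 0.65 for the markers, 3.47 for Stfa1, 3.07 for Stfa2l1 and 3.09 for Stfa3. Deficient pool 2 minus wild type pool 1 gave 0.92 for the markers, 3.83 for Stfa1, 3.10 for Stfa2l1 and 2.31 for Stfa3. All 3 stefin A genes and the marker list were higher in deficient pool 1 than in deficient pool 2, and Stfa1, Stfa2l1 and the list were lower in wild type pool 1 than in wild type pool 2, whereas Stfa3 was higher there. Beyond these values the part of neutrophil RNA in the stefin differences was not tested. In pools of cells, more cells of a type and more RNA per cell cannot be told apart.

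Cst7 was set beside the markers of granulocyte progenitors. Of 8 listed granulocyte progenitor markers 7 were measured, 6 of them above 0, against 49.2% of all genes, with a median of 0.61. The list's mean log2 value was 9.05 and 10.7 in the deficient arrays against 7.99 and 10.6 in the wild type arrays, and deficient pool 2 and wild type pool 2 were the high pools for Cst7 as well. The myeloperoxidase gene Mpo stood at 10.72 and 12.83 in the deficient arrays against 10.71 and 12.60 in the wild type arrays. Prtn3 differed by 0.61 (SE 0.46), Ms4a3 by 1.38 (SE 1.28) and Ctsg, for the granule serine protease cathepsin G, by 1.59 (SE 1.72), all with overlapping groups. By limma 0 of the 7 passed, and 0 had an unadjusted p under 0.05. The median turned to -0.22 when deficient pool 2 was left out and to -0.82 when wild type pool 1 was. It was 1.18 after omission of deficient pool 1 and 1.26 after that of wild type pool 2. The part of progenitor RNA in the Cst7 values was not tested.

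**Figure D3:**
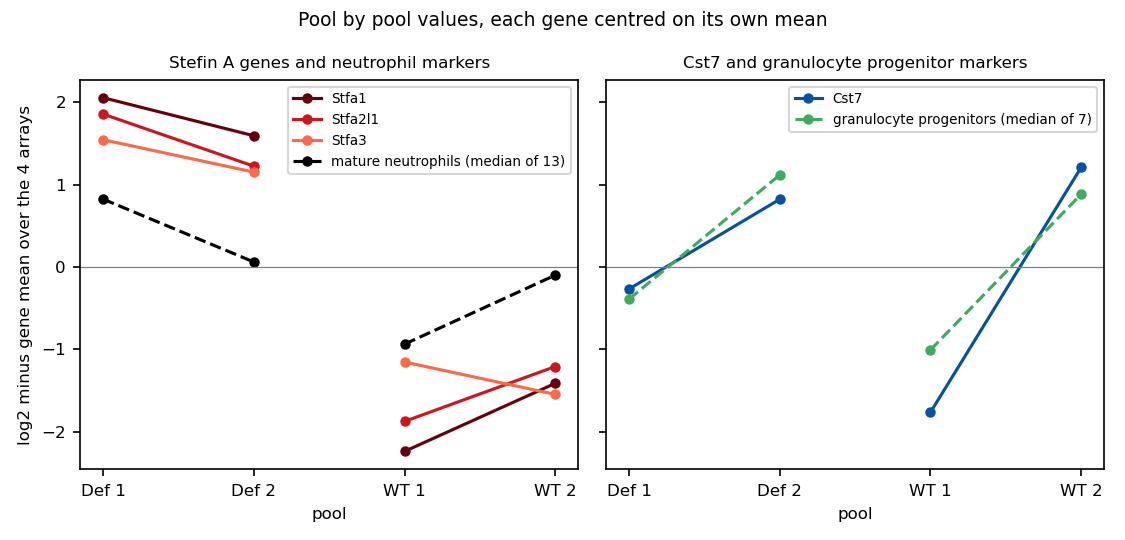
Log2 value minus the gene's own mean over the 4 arrays for each pool (Def, Rb family deficient; WT, wild type), with lines joining the pools of a group. The left panel has the 3 stefin A genes and the median of 13 neutrophil markers, all higher in both deficient pools than in both wild type pools, and the right panel has Cst7 and the median of 7 granulocyte progenitor markers, both high in pool 2 of each group.

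The other inhibitors and proteases of the system followed no single direction. Their counts above 0 stand against 49.2% of all genes. The 10 measured cystatins beside Cst3 and Cst7, drawn from the secreted cystatins and the kininogen and fetuin group, had a median of 0.04 with 6 above 0. Their log2 values ran from 3.42 to 6.29, and the mean of the list was 4.62 to 4.77 on the arrays. The array medians were 5.93 to 6.01, so these cystatins were not shown to stand above background. Ahsg (0.22, SE 0.14), Cst12 (0.20, SE 0.16), Cst9 (0.19, SE 0.16) and Cst11 (-0.16, SE 0.14) had the lowest p among them. The median was -0.01 with median centring and 0.11 without wild type pool 2. Of 8 other cysteine protease genes of the lysosome, legumain included, 5 lay above 0 with a median of 0.08, and the list turned to -0.05 when deficient pool 1 was left out and to -0.11 when wild type pool 1 was. It was 0.15 when wild type pool 2 was left out, and 0.02 when probe sets without an _x_at, _s_at or _a_at name came first. Ctsw, a cathepsin of cytotoxic lymphocytes, stood at 7.93 and 8.17 in the deficient arrays against 7.78 and 7.47 in the wild type arrays (0.43, SE 0.18). The exopeptidase gene Ctsz (-0.31, SE 0.18) and Ctso (-0.27, SE 0.19) were lower in both deficient pools without overlap. Ctsk (0.33, SE 0.32), Lgmn for legumain (0.15, SE 0.20), Ctss (0.10, SE 0.24), Ctsc (-0.08, SE 0.16) and Ctsh (0.07, SE 0.22) overlapped between the groups. By limma 0 members of either list passed, and 0 had an unadjusted p under 0.05.

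Among the cathepsins that are not cysteine proteases, Ctsa, for the serine carboxypeptidase cathepsin A, stood at 8.67 and 8.97 in the deficient arrays against 9.40 and 9.44 in the wild type arrays. Its log2 difference was -0.60 (SE 0.17, n = 2 pools per group), at a limma adjusted p of 0.760. The aspartic protease gene Ctsd was at 9.80 and 9.66 in the deficient arrays and at 9.92 and 9.94 in the wild type arrays, a difference of -0.20 (SE 0.15), and Ctse differed by 0.29 (SE 0.22) with overlap. With Ctsg the list of 4 had a median of 0.05, which was -0.01 with median centring. Leaving out a pool gave -0.04 and 0.14 for deficient pools 1 and 2, and -0.42 and 0.18 for wild type pools 1 and 2. Limma called 0 of the 4, with Ctsa lower at an unadjusted p under 0.05 (4.04% of all genes).

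Genes of the lysosome, the compartment in which most cathepsins act, lay slightly below 0. Of 26 measured hydrolases, membrane proteins and proton pump subunits, 21 lay below 0, against 50.8% of all genes, with a median of -0.11, and for 10 of them both deficient pools lay below both wild type pools, against 18.5% of all genes. None of the 26 had both deficient pools above both wild type pools, against 17.0%. Limma called 0 of the 26, and those at an unadjusted p under 0.05 were 4 below 0 (4.04% of all genes) and 0 above it (2.2% of all genes). These 4 were M6pr, a receptor that carries hydrolases to the lysosome (-0.53, SE 0.17), the acid glucosidase gene Gaa (-0.43, SE 0.14), the glucuronidase gene Gusb (-0.52, SE 0.18) and Gnptab, which helps make the mannose phosphate tag of hydrolases (-0.52, SE 0.20). Gaa stood at 9.29 and 9.31 in the deficient arrays against 9.74 and 9.72 in the wild type arrays. The median stayed between -0.17 and -0.10 under every alternative tried, and between deficient pool 2 and wild type pool 2 it was -0.07.

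**Figure D4:**
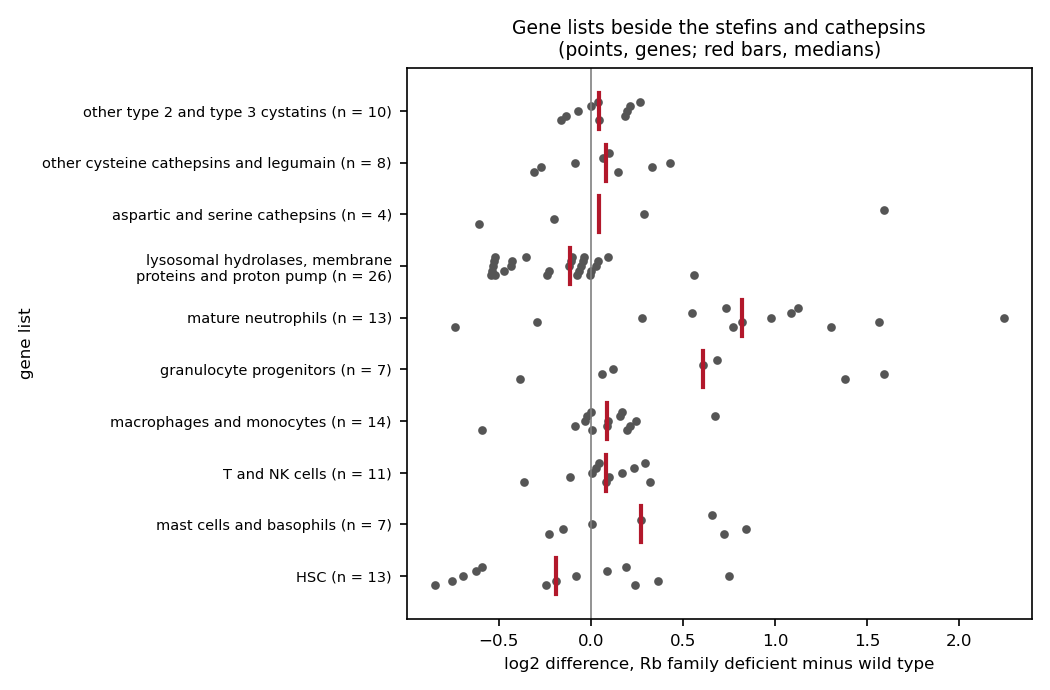
Log2 difference, Rb family deficient minus wild type, of each measured gene in 10 lists (grey points), with the list's median as a red bar. Neutrophil markers centre on 0.82, lysosomal genes on -0.11, and the other cystatins and cysteine cathepsins lie near 0.

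Markers of further cell types were given for the same reason as the neutrophil markers, and their counts above 0 stand against 49.2% of all genes. Macrophage and monocyte markers had a median of 0.09 over 14 genes, 10 of them above 0, with Cd14 at 0.68 (SE 0.20), Cd163 at -0.59 (SE 0.32), Fcgr1 at 0.19 (SE 0.16) and Adgre1 at 0.00 (SE 0.21). Markers of T and NK cells, which are known to express Cst7 and Ctsw, had a median of 0.08 over 11 genes, 9 of them above 0, with Il2rb at 0.32 (SE 0.14), Gzmb at 0.24 (SE 0.14), Cd3g at 0.17 (SE 0.16) and Cd3e at 0.08 (SE 0.16), and with Ccl5 at -0.36 (SE 0.34) and Gzma at -0.11 (SE 0.29) below 0. Mast cell and basophil markers had a median of 0.27 over 7 genes, 5 of them above 0, with Fcer1a at 0.84 (SE 0.34), Cma1 at 0.27 (SE 0.16) and Mcpt8 at 0.66 (SE 0.44), and with Cpa3 at -0.22 (SE 0.37) and Ms4a2 at -0.15 (SE 0.63) below 0. The HSC list had a median of -0.19 over 13 genes, 5 of them above 0 (Ctnnal1, Hoxb5, Slamf1, Flt3 and Tek). Procr was at -0.85 (SE 0.17), Mecom at -0.69 (SE 0.16) and Cd34 at -0.76 (SE 0.24). Cd34 and Flt3 are low on adult mouse HSC. Both deficient pools lay below both wild type pools for 6 of the 13, against 18.5% of all genes, and above them for 1, against 17.0%. Limma called 0 genes of these 4 lists. At an unadjusted p under 0.05 stood Procr, Mecom and Cd34 below 0 (4.04% of all genes) and Cd14 above it (2.2% of all genes). Named after its value was seen, Ctnnal1 (0.75, SE 0.24) stood there as well, above 0. The macrophage marker Adgre1 stood at 5.41 and 5.37 in the deficient arrays against 5.12 and 5.65 in the wild type arrays. Mean log2 values on the arrays were 5.73 to 6.08 for the macrophage list, 5.64 to 5.97 for T and NK cells and 5.10 to 6.04 for mast cells. The array medians were 5.93 to 6.01. Dim markers of these lists, such as Cd3g at 3.33 to 3.66, were not shown to stand above background. Without wild type pool 1 the medians were -0.06 for macrophages, -0.02 for T and NK cells, 0.06 for mast cells and -0.28 for HSC. Without wild type pool 2 they were 0.23, 0.23, 0.67 and -0.10 in the same order.

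The promoter windows of the 8 genes were also searched for motifs of factors linked to the Rb family, myeloid cells, cytokine signalling and lysosomal genes. The C/EBP form TTNNGNAA was found in 5 of the 8 windows, those of Stfa1, Stfa2, Stfa2l1, Cst7 and Ctsl, and in 40.7% of all 32851 windows of the same length. In Stfa2l1 it began 44 bases before the start and in Stfa1 109 bases before it, both on the minus strand of the window. GAGGAA was found in the windows of all 4 stefin A genes and of Cst3, against 28.3% of all windows. Neither E2F form searched, TTTNGCGC or TTTCCCGC, matched any of the 8 windows, against 1.38% and 1.07% of all windows. The STAT form TTCNNNGAA matched 0 of 8, against 8.3% of all windows. CACGTG, the core of the motif read by the lysosomal regulator TFEB, matched the windows of Ctsf and Ctsl, against 7.15% of all windows, and the longer CLEAR motif, which holds CACGTG, matched 0 of 8, against 0.326%. Matches and their lack describe these letters only.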

How the data were processed

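Mouse HSC were profiled on 4 arrays. Per the submitters' processing notes the authors made the deposited values with RMA and named limma. No version or setting is given in the sources used here. That the deposited values are log2 was read from their range, 2.65 to 14.9, with near-equal array medians. RMA forces the arrays to like distributions, so a shift in the RNA content of whole cells is not visible. The number of arrays limits the precision, and no detection calls were used.

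The table had 45101 probe sets, 64 of them controls of the array. In the platform annotation, dated 2016, 34945 had 1 symbol and 932 several, and 9160 were unnamed. Through the Entrez ID 34741 of the 34945 were found in RefSeq (GRCm38.p6). Each gene took the probe set with the highest mean, among those with 1 symbol, and Stfa1 the one shared with Cstdc5. Differences are Rb family deficient minus wild type by limma 3.58.1 in R 4.3.3 (lmFit, eBayes, no block, all 4 arrays), with Benjamini-Hochberg adjustment over 18194 genes and a threshold of 0.05. Every SE is limma's moderated SE, and probe sets were tested in a separate fit of all probe sets. The fit was tested on simulated data. Promoters were aligned with Biopython 1.88.

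The genes, lists and tests were chosen with earlier results of these data known. By rule, named genes are all members, the 4 lowest p of a list (all of a list of 8 or fewer), the 3 lowest p of a marker list with Ltf, Camp, Mpo, Cd3e and Adgre1, and the 5 nearest genes to Stfa2l1, Stfa3 and Ctsf. Markers named outside this rule are Slamf1, Kit, Ctnnal1, Hoxb5, Flt3 and Tek of the HSC list and Mmp9, Lcn2, Padi4, S100a8, S100a9 and Ngp of the neutrophil list. Ccl5, Gzma, Cpa3 and Ms4a2 of the other marker lists are outside it as well. Protein comparisons were not made here. Alternatives were each pool left out, the replicate number as a block, median centring, dim genes left out, another probe set rule or the mean of probe sets, and eBayes with trend and robust settings. The deviations of same-numbered pools correlated at -0.189 over genes, so the numbers were not taken to pair pools.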

Additional observations from a re-analysis of the deposited data

How the results depend on the processing

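Of 89 values of the 9 genes under alternatives, 80 kept their sign and 9 turned. Part of the 80 could not have turned. The replicate block, the omission of dim genes and trend and robust eBayes left each gene's difference unchanged. The probe set rules likewise left the 5 genes with 1 probe set unchanged. The count of 80 is therefore no measure of how stable the signs were. With all pools kept none passed the threshold. The lowest limma adjusted p was 0.0652, for Stfa1 and Stfa3 with trend and robust eBayes. The 9 that turned were Cstb without wild type pool 1 (-0.16), Cst3 without deficient pool 1 (-0.05), under omission of wild type pool 1 (-0.14) and with median centring (-0.045), Cst7 without wild type pool 1 (-0.93), and Ctsl when deficient pool 2 (0.10) or wild type pool 2 (0.14) was left out, with the mean of its probe sets (0.056) and with specific probe sets first (0.20). With a pool left out Cstb ran from -0.16 to 0.66, Cst3 from -0.14 to 0.15, Cst7 from -0.93 to 2.04 and Ctsl from -0.31 to 0.14. The cause was not tested. Stfa3 has no value with dim genes left out, since its mean lies under the median. Limma called 0 genes under every alternative. Genes higher at an unadjusted p under 0.05 ran from 245 to 690 with a pool left out and were 228 with dim genes left out, where fewer genes were tested. Genes lower ran from 316 to 1082 with a pool left out. With median centring the split was 299 higher and 1009 lower. At least 2-fold higher genes ran from 103 to 191 and lower ones from 80 to 200 with a pool left out, and 32 were lower with the mean of probe sets. With the replicate number as a block, the genes at an unadjusted p under 0.05 were 282 higher and 457 lower, with 0 calls and the differences as without it. With the numbers crossed, an alternative chosen after seeing the data, 519 were higher and 1151 lower. List medians with a pool left out ran from 0.038 to 0.11 (other cystatins), -0.11 to 0.15 (other cysteine cathepsins), -0.42 to 0.18 (aspartic and serine cathepsins), 0.38 to 1.48 (neutrophils), -0.82 to 1.26 (granulocyte progenitors), 0.062 to 0.67 (mast cells) and -0.28 to -0.10 (HSC). The lysosomal median was -0.17 with median centring or specific probe sets first, that of mast cells 0.69 with dim genes left out, and that of HSC -0.030 with the mean of probe sets and -0.081 with specific probe sets first.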
